A study of Danio rerio with 6 samples.

Results

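The genes described here are 8 genes of the zebrafish heart field and heart chambers, the transcription factor genes gata4, gata5, hand2, tbx5a and tbx20 and the chamber genes myl7, vmhc and nppa. They were chosen by name from a set of 9, of which gata6 was not analysed here, and they make up 8 of 21228 entries of a table of gene expression in whole embryos. Tuebingen embryos were exposed to pentachlorophenol (PCP, a wood preservative and pesticide) from about 1 hpf (hours post fertilization), and all groups, the DMSO controls included, received the vehicle. The controls were 10C and 24C, collected at 10 and 24 hpf. The 10L and 24L groups were given 5 μg/l PCP, and the 10H and 24H groups 200 μg/l. For every group a single library was made from pooled embryos. There were thus no replicates, and each test below sets 2 libraries, not 2 conditions, against each other.

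In the vertebrate embryo, heart muscle arises from lateral plate mesoderm on both sides of the midline. Gata and T-box transcription factors together with Hand2 specify this heart field, and they later switch on genes of the contractile apparatus. Around the end of gastrulation the zebrafish heart field holds no differentiated muscle, and about a day after fertilization a heart tube that begins to beat has formed.

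Deposited values are normalized counts, the number of reads of a gene times a factor of its library, and the reads behind each value were recovered from them. The libraries held between 47409208 and 59864868 reads, and 1 read was worth between 0.862 and 1.07 normalized counts. The words rose, fell and called are kept for genes that differed more than 2-fold and had an unadjusted p under 0.05 by the exact binomial test (two-sided), applied to the 2 read counts. Each fold change is followed in parentheses by a 95% interval (Clopper-Pearson) for counting error alone. Because whole embryos were sequenced, fewer cells of a type and less RNA per cell cannot be told apart. The files give no gene lengths, so levels are compared between libraries. Reads of different genes are set side by side only to show which genes hold most of a summed count.

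In control embryos nearly the whole set changed with age. The chamber genes were near 0 at 10 hpf and abundant at 24 hpf, while the Gata genes were higher at 10 hpf. Of the 8 genes, 5 rose and 2 fell between 10C and 24C, where 46.9% of all 21217 tested genes were called (28.9% higher, 18% lower). The exception was hand2, at 0.872 times its 10 hpf level (0.808 to 0.941). At a 4-fold threshold 4 rose and 1 fell, since the calls of gata4 and tbx20 were lost, and the same held when a biological coefficient of variation of 0.4 was assumed (edgeR exact test, p = 0.226 for gata4 and 0.0958 for tbx20). Of all 21217 tested genes, 5353 were called at 4-fold (4129 higher, 1224 lower). With the assumed coefficient 5969 were called (4391 higher, 1578 lower).

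**Figure D1:**
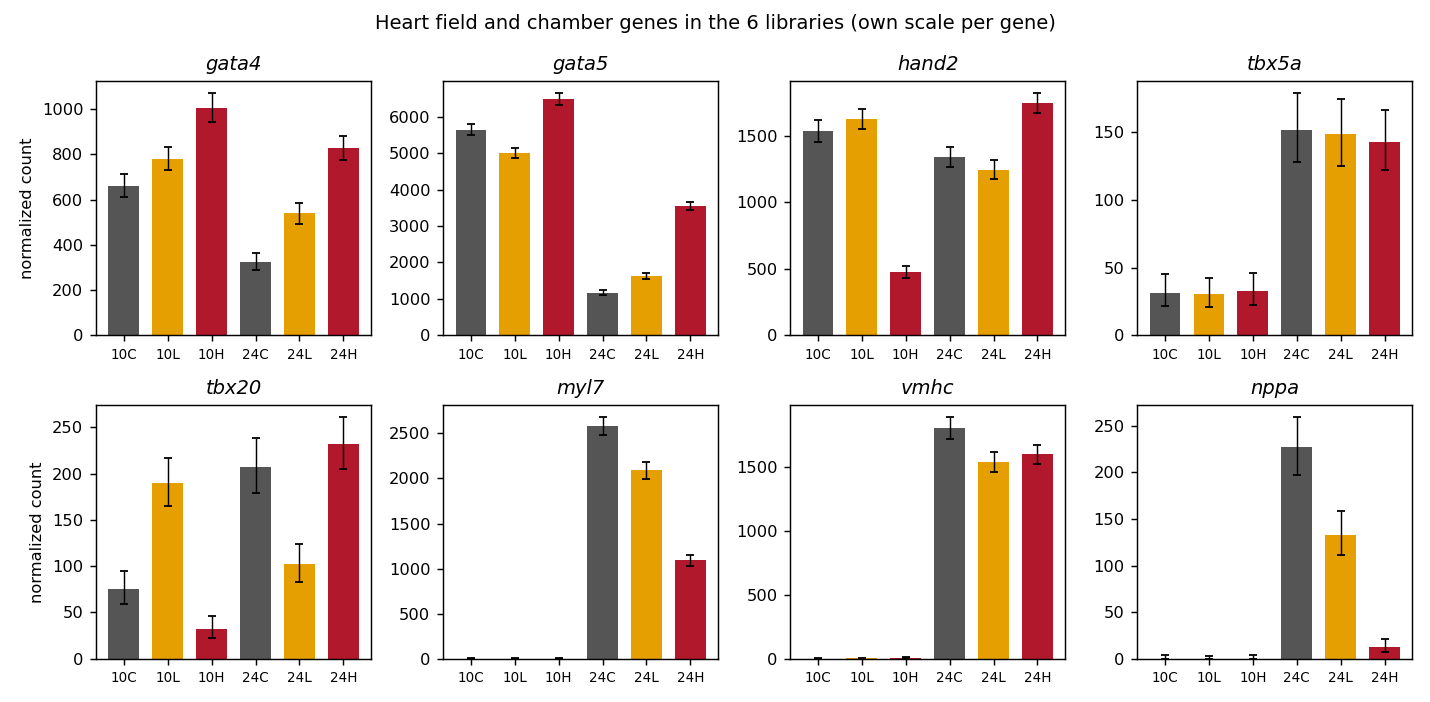
Normalized count of each of the 8 genes in the 6 libraries, on a linear axis from 0 with its own scale per gene. Bars are single libraries (grey control, orange 5 μg/l, red 200 μg/l) and error bars are 95% counting intervals. The genes nppa, myl7 and vmhc lie between 0 and 8.41 at 10 hpf and between 12.9 and 2578 at 24 hpf.

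The gene gata5 encodes a zinc-finger factor of early endoderm and heart precursors, needed in zebrafish for enough heart muscle to form. Its normalized counts were 5641, 5004 and 6484 at 10 hpf (10C, 10L, 10H) and 1165, 1628 and 3536 at 24 hpf (24C, 24L, 24H). At 10 hpf the treated libraries lay on either side of the control, and at 24 hpf the order was control, low dose, high dose. In 24H the gene rose 3.04-fold (2.84 to 3.25), from 1089 to 4103 reads. In 24L it was at 1.40 times the control (1.29 to 1.51), and 24H exceeded 24L 2.17-fold (2.05 to 2.30). With age gata5 fell in the controls to 0.207 times its 10 hpf level (0.193 to 0.220), while 24H was at 0.545 times the level of 10H (0.524 to 0.567).

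Its relative gata4, which acts in the same tissues and takes part in forming and growing the heart tube, lay at 24 hpf in the same order of libraries. The normalized counts were 661, 779 and 1005 at 10 hpf (10C, 10L, 10H) and 324, 538 and 826 at 24 hpf (24C, 24L, 24H). Both ages therefore ran from control through low to high dose. The gene rose 2.55-fold in 24H (2.24 to 2.91), whereas 24L at 1.66 (1.44 to 1.92) and 10H at 1.52 (1.37 to 1.68) stayed under the 2-fold threshold. Between the control ages gata4 fell to 0.490 times its level (0.426 to 0.563), a value beside the threshold that passes or fails with the scaling of the libraries. With library totals the log2 fold change was -0.97 in place of -1.03, and the call was lost.

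The gene hand2 encodes a basic helix-loop-helix factor without which zebrafish form few heart muscle cells, and it also serves the fin bud and pharyngeal arches. It was low in 1 library alone, with 450 reads in 10H against 1461 in 10C and 1835 in 10L. Its normalized counts at 10 hpf were 1533 in 10C, then 1623 at low and 473 at high dose. At 24 hpf they were 1336 in 24C, then 1244 at low and 1742 at high dose, so the high dose was then the highest of the age. The gene fell to 0.309 times the control in 10H (0.277 to 0.343) and stood at 1.30 times it in 24H (1.21 to 1.40). Within the high-dose pair hand2 was 3.68-fold higher at 24 than at 10 hpf (3.32 to 4.09), whereas 24L was at 0.766 times 10L (0.712 to 0.824).

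The T-box genes behaved differently from each other. The gene tbx20, a T-box factor of the heart field and later of the heart muscle, had 72, 214 and 31 reads at 10 hpf (10C, 10L, 10H) and 194, 99 and 269 at 24 hpf (24C, 24L, 24H). Low dose was highest at 10 hpf and lowest at 24 hpf, and high dose the reverse. It rose 2.51-fold in 10L (1.91 to 3.32) and fell to 0.431 times the control in 10H (0.274 to 0.666). It fell to 0.492 times the control in 24L (0.382 to 0.630), and 24H was at 1.12 times it (0.925 to 1.35). The intervals of the 10L, 10H and 24L values reach across the 2-fold threshold, and none of these calls was made when a biological coefficient of variation of 0.4 was assumed (edgeR exact test, p between 0.132 and 0.236).

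The gene tbx5a, which patterns heart and pectoral fin bud and whose loss gives the heartstrings mutant, was the member that moved least with PCP. Its reads were 30, 34 and 31 at 10 hpf (10C, 10L, 10H) and 142, 144 and 166 at 24 hpf (24C, 24L, 24H). Fold changes against the control of the same age lay between 0.942 and 1.04. The widest interval, at 10 hpf, ran from 0.606 to 1.77 for 10H, and the narrowest, at 24 hpf, from 0.748 to 1.19 for 24H. The ratio of 24 to 10 hpf was 4.83-fold in the controls (3.24 to 7.41), 4.94-fold at low dose (3.38 to 7.40) and 4.39-fold at high dose (2.98 to 6.67).

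Among the chamber genes, nppa changed most. It encodes the atrial natriuretic peptide precursor, a hormone of the working chamber muscle. It had 0 reads in all 3 libraries at 10 hpf, and 212 in 24C, then 129 at low and 15 at high dose. In normalized counts the last 3 were 227, 133 and 12.9, in the order of dose. The gene fell to 0.0570 times the control in 24H (0.0313 to 0.0962). In 24L it was at 0.587 times the control (0.468 to 0.734), short of the threshold, and 24H was at 0.0972 times 24L (0.0529 to 0.166). The 24C library was 72.0-fold higher than 10C with a floor of 3 counts in place of the 0 reads, and at least 58.1-fold higher by the counting interval.

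The gene myl7 encodes the regulatory myosin light chain of heart muscle and is the usual marker of the whole myocardium. Its reads were 0, 3 and 2 at 10 hpf (10C, 10L, 10H) and 2410, 2025 and 1269 at 24 hpf (24C, 24L, 24H). The normalized counts at 24 hpf were 2578, 2088 and 1094, again in the order of dose. The gene fell to 0.424 times the control in 24H (0.396 to 0.454), and 24L was at 0.810 times it (0.763 to 0.860). The 24H library held 0.524 times the level of 24L (0.488 to 0.562), just short of the threshold. With the same floor of 3 counts the 24C library was 819-fold higher than 10C, and by the counting interval at least 666-fold.

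The gene vmhc, the ventricular myosin heavy chain, did not follow myl7. It had 2, 3 and 8 reads at 10 hpf (10C, 10L, 10H) and 1687, 1491 and 1855 at 24 hpf (24C, 24L, 24H). In normalized counts the 24 hpf libraries were at 1805, 1538 and 1599, so both treated libraries lay below the control, and the low dose lower than the high. The fold changes were 0.852 in 24L (0.794 to 0.914) and 0.886 in 24H (0.829 to 0.947), and the gene was not called. At 10 hpf the counts gave ratios of 1.26 in 10L (0.145 to 15.1) and 4.01 in 10H (0.80 to 38.7). In the controls vmhc was 860-fold higher at 24 than at 10 hpf (238 to 7107). In the RefSeq assembly GRCz12tu the neighbour of vmhc is the related gene vmhcl, named myh7l there. Whether reads were split between these related genes was not tested, and both values carry that uncertainty.

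**Figure D2:**
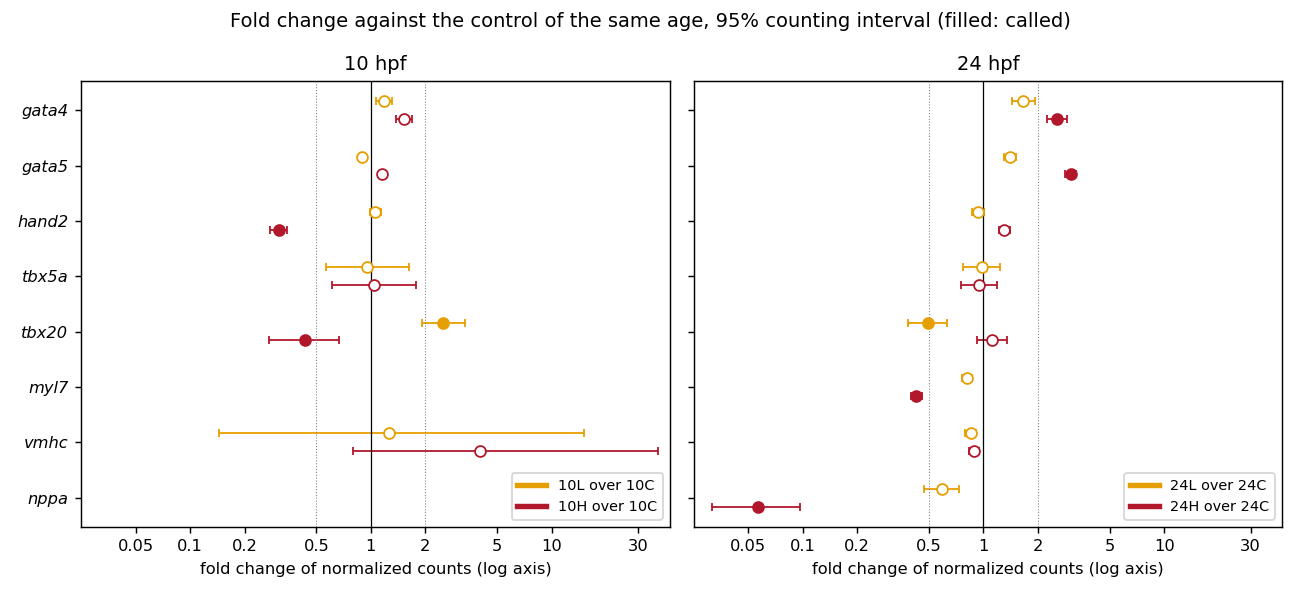
Fold change of each gene in the treated library over the control of its age, at 10 hpf (left) and 24 hpf (right), on a log axis with the 95% counting interval as bar. Filled points were called, the dotted lines mark 2-fold, and nppa and myl7 are not drawn at 10 hpf, where they had 0 to 3 reads. At 24 hpf the points run from nppa in 24H at 0.0570 to gata5 in 24H at 3.04, and at 10 hpf the highest, vmhc in 10H at 4.01, has an interval that includes 1.

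The calls of each treated library are counted here over the set. In 10L, 1 of 8 genes was called, tbx20, where 6.18% of all tested genes were (3.78% higher, 2.4% lower). In 10H, 2 of 8 fell, hand2 and tbx20, against 13.1% of all genes called (6.96% higher, 6.12% lower). In 24L, 1 of 8 fell, tbx20, against 7.86% (3.5% higher, 4.36% lower). In 24H, 4 of 8 were called, with gata4 and gata5 higher and nppa and myl7 lower, against 28.5% (11.9% higher, 16.6% lower). Of these 4, gata4, gata5 and myl7 were not called under the assumed coefficient of variation (edgeR exact test, p between 0.0608 and 0.144), and nppa was. At 10 hpf only 5 of the 8 averaged at least 10 reads over the libraries compared, and at 24 hpf all 8 did. The median log2 fold change of the measured genes at 10 hpf was 0.08 at low and 0.05 at high dose, beside -0.02 and 0.02 over all measured genes. At 24 hpf it was -0.17 and 0.04, beside -0.02 and -0.03. With 8 genes, these shares are a description.

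A model of age plus dose over all 6 libraries, which takes the spread from what age and dose leave unexplained (2 residual degrees of freedom), was fitted to 17713 genes after the data had been seen. Its dose terms average both ages for genes that were counted at both. For nppa, at 0 reads in every library of the younger age, the dose terms rest on the older age alone. They fit those libraries exactly, so nppa leaves no spread of its own, and its p rests on spread taken from other genes. The dose terms of nppa are therefore not evidence separate from the tests of the older libraries above. The unexplained spread includes any difference of the dose effect between the ages, and no replicates enter it. By the edgeR quasi-likelihood test no gene reached an adjusted p under 0.05 at either dose. At an unadjusted p under 0.05 it called 163 genes (0.92%) and 0 of 8 members at 5 μg/l, and 2746 genes (15.5%) and 2 of 8 members at 200 μg/l. Those 2 were nppa, with a log2 fold change of -4.06 (adjusted p = 0.288), and gata4, with 0.97 (adjusted p = 0.288).

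Direct comparison of the doses gave 2 of 8 genes called at 10 hpf, where 16.5% of all tested genes were (7.77% higher, 8.77% lower). Both fell in 10H relative to 10L, hand2 to 0.291 (0.262 to 0.323) and tbx20 to 0.172 (0.114 to 0.252). At 24 hpf 3 of 8 were called between 24H and 24L, against 17.9% of all (6.8% higher, 11.1% lower). Here gata5 and tbx20 were higher in 24H, tbx20 by 2.27-fold (1.80 to 2.89), and nppa was lower. The other members at 24 hpf differed less, with gata4 at 1.54 (1.38 to 1.71), hand2 at 1.40 (1.30 to 1.51) and vmhc at 1.04 (0.971 to 1.11). The plot of changes from 10 to 24 hpf sets the same genes side by side within each dose.

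**Figure D3:**
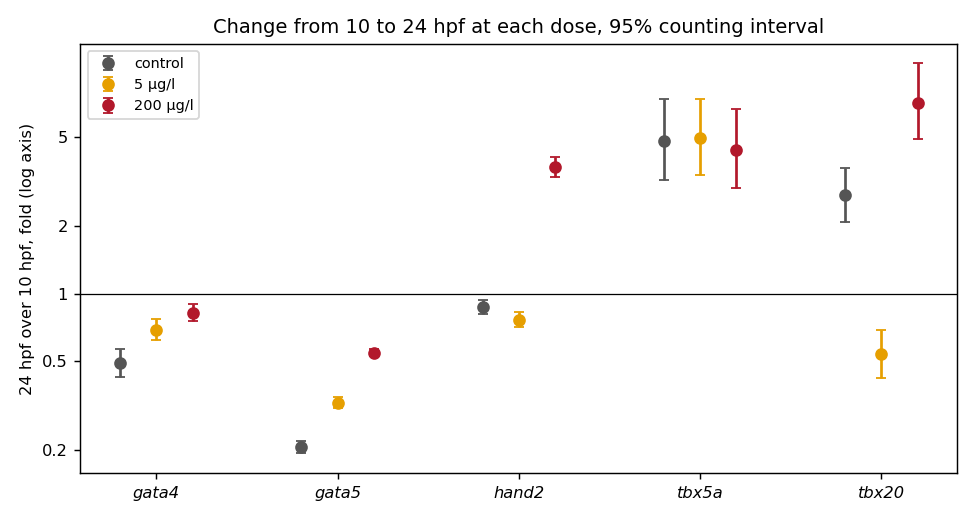
Fold change from 10 to 24 hpf in the control, low-dose and high-dose pairs for the 5 transcription factor genes, on a log axis with 95% counting intervals. Control values run from 0.207 for gata5 to 4.83 for tbx5a, and hand2 is at 3.68 in the high-dose pair and 0.872 in the control pair.

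Relatives of the members were examined by list. The 12 paralogs and neighbours in name were all measured in 24H, where 2 rose and 4 fell. In 10H 7 of them were measured, and 1 fell. Of all measured genes 14.1% rose and 18.1% fell in 24H, and 8.06% rose and 7.27% fell in 10H. In 24L these shares were 3.74% and 4.48%. They are the shares to set beside every list count of the same library below. The gene gata2a, of early ectoderm and blood precursors, and gata3, of ectoderm and nervous system, rose in 24H, to 2.92 times (2.66 to 3.21) and 2.78 times the control (2.61 to 2.97). The blood regulator gata1a, at 0.540 (0.484 to 0.603), did not pass. With 3 reads in 24H against 33 in 24C, gata2b fell to 0.0732 (0.0144 to 0.233). The T-box genes tbx1, tbx18 and tbx5b were at 0.989 (0.903 to 1.08), 0.862 (0.712 to 1.04) and 0.691 (0.383 to 1.24), the last from 24 and 28 reads.

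Of the natriuretic peptides, the entry LOC100334610, which RefSeq names nppb, fell in both treated libraries. It had 69 reads in 24C, 30 in 24L and 29 in 24H, giving 0.419 (0.264 to 0.652) and 0.339 (0.212 to 0.530). It neighbours nppa in the RefSeq assembly. The entry LOC567953, named nppal there, had 20 reads in 10C, 15 in 10L and 2 in 10H, and fell in 10H to 0.10 times the control (0.0114 to 0.412). Among the myosins vmhcl was at 835 reads in 24C, 342 in 24L and 196 in 24H, and fell to 0.395 times the control (0.347 to 0.448) and to 0.189 times it (0.161 to 0.221). The light chain of fast skeletal muscle, mylz2, fell to 0.0649 in 24H (0.0638 to 0.0661), whereas the smooth-muscle light chain myl9 was at 0.999 (0.978 to 1.02).

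Regulators that act beside the members numbered 23 in the table. In 10H, 21 were measured, 1 rose and 6 fell, where 8.06% of all measured genes rose and 7.27% fell. The largest falls named by the rule were in wt1a, a factor of the epicardium and kidney, to 0.0455 times the control (0.0145 to 0.110), and in six1b, of the cranial placodes and muscle, to 0.296 (0.237 to 0.365). The LIM factor isl1, a marker of late-added heart cells and also of neurons, fell to 0.303 (0.251 to 0.363). The gene ltbp3, an extracellular TGF-beta binding protein that serves the second heart field, rose 3.12-fold (2.66 to 3.68). In 24H, 6 of 23 rose and 1 fell, where 14.1% of all measured genes rose and 18.1% fell, and the highest were srfl, 9.76-fold (8.03 to 12.0), and the muscle factor mef2d, 5.15-fold (4.59 to 5.80). In 24H the ratios of wt1a, six1b and isl1 were 1.64, 0.969 and 1.20, none of them called.

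The sarcomere list was measured in 17 of 17 genes at 24 hpf, of which 1 rose and 4 fell in 24H, and 0 rose and 2 fell in 24L. The gene mybpc3, cardiac myosin binding protein C, had 812 reads in 24C, 653 in 24L and 241 in 24H, and fell to 0.239 times the control (0.206 to 0.276). The chaperone gene unc45b, which folds myosin, rose 2.72-fold (2.61 to 2.85). The tropomyosin gene tpm4, in 10H at 0.468 (0.429 to 0.509), fell at 10 hpf and was at 1.15 (1.12 to 1.18) in 24H. The cardiac light chain cmlc1, singled out after its values were seen, had 1959 reads in 24C, 1976 in 24L and 1313 in 24H, a ratio of 0.540 (0.503 to 0.579) that was short of the threshold. The heart troponin genes tnnt2a and tnnc1a and the atrial myosin gene myh6, singled out in the same way, were at 0.570 (0.530 to 0.612), 0.545 (0.487 to 0.609) and 0.663 (0.571 to 0.770) in 24H, and none was called. Other genes of the list lay above the control without being called, such as the actin gene actc1a at 1.72 (1.69 to 1.76) and the myosin methyltransferase gene smyd1b at 1.69 (1.59 to 1.80), likewise singled out afterwards. In all, 7 of the 17 were above the control in 24H and 10 below it. The part of muscle outside the heart in the values of this list was not tested.

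**Figure D4:**
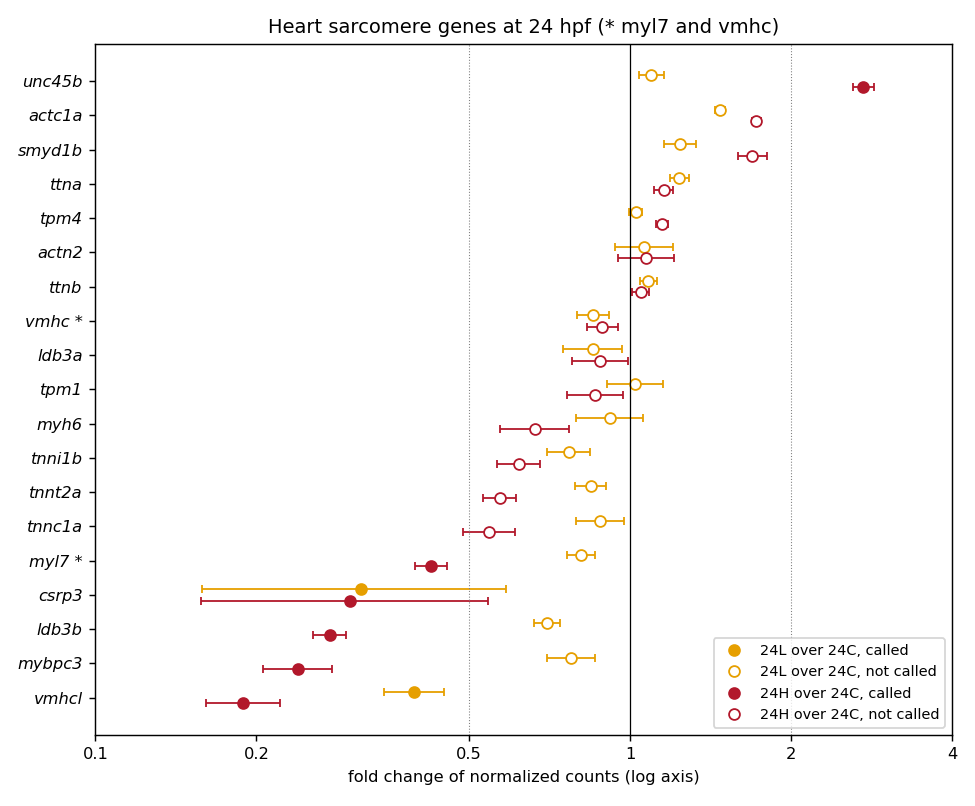
Fold change of the 17 sarcomere genes, with myl7 and vmhc added and marked by an asterisk, in 24L and 24H over 24C on a log axis with 95% counting intervals. Filled points were called and the dotted lines mark 2-fold. The lowest value is vmhcl in 24H at 0.189 and the highest unc45b in 24H at 2.72.

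Rhythm and calcium genes gave 3 that rose and 1 that fell of 11 measured in 24H. The potassium channel gene kcnh2l rose 2.43-fold (1.80 to 3.33). The gene casq2, cardiac calsequestrin, fell to 0.317 (0.300 to 0.334). For the endocardium and valves, 4 of 16 rose and 1 fell. The hyaluronan synthase gene has2, which makes the cardiac jelly between the layers, rose 11.8-fold (9.24 to 15.3), and vcana, a versican of the same matrix, 4.02-fold (3.78 to 4.28). The matrix gene spock3 fell to 0.314 (0.275 to 0.358). Endothelial genes of the list, picked after their values were seen, differed in direction. Their reads in 24C and 24H were 916 and 607 for cdh5 and 587 and 419 for tie1. For tie2 they were 217 and 488, and for egfl7 457 and 763. The genes has2 and vcana therefore do not stand for the endocardium as a whole. In 10H the transcription factor gene klf2b rose 2.79-fold (2.66 to 2.93) and hapln1a, a hyaluronan link protein, fell to 0.413 (0.293 to 0.575). At that age the heart field holds no differentiated muscle. The paper lists has2 among genes of somitogenesis. The part of tissues outside the heart in the values of these lists was not tested.

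Genes listed as signals to the heart field moved mostly upward in 24H, where 10 of 19 measured rose and 0 fell. The list holds ligands and receptors, and also genes that limit a signal, such as chd and cyp26a1. Their reads in 24C and 24H were 88 and 430 for chd and 1214 and 6407 for cyp26a1. The counts of this list are therefore not a measure of signalling. The median log2 fold change was 1.05, beside -0.03 over all measured genes. The Nodal co-receptor gene oep rose 7.94-fold in 24H (6.58 to 9.66) and 3.84-fold in 10H (3.59 to 4.12). The growth factor gene fgf8a, needed in zebrafish for the heart field, rose 5.63-fold in 24H (5.06 to 6.29). In 10H, 6 of 21 rose and 2 fell, among them the Nodal ligand gene ndr2, 3.16-fold (2.51 to 4.01), and the Wnt ligand gene wnt11r, which fell to 0.196 (0.165 to 0.232) and in 24H rose 3.26-fold (3.07 to 3.46). The paper lists fgf8a and oep among genes of somitogenesis. The part of tissues outside the heart field in these values was not tested.

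Tissue markers in the same whole embryos changed in the same libraries. The 13 endoderm genes, a tissue in which gata5 and gata4 also act, were all measured in 24H, where 8 rose and 0 fell, and their summed normalized counts were 8084 in 24C, then 9654 at low and 15441 at high dose. At 10 hpf the same sums were 22336 in 10C, then 18335 at low and 36909 at high dose. Abundant genes weigh most in these sums, so they are not a level of endoderm as a whole. At 24 hpf the most abundant was sox2, with 3470, 3669 and 4891 reads (24C, 24L, 24H). As sox2 is not particular to endoderm and holds a large part of the sums, these do not measure endoderm. The endoderm factor sox32, at 0 reads in 24C, had 72 in 24H, at least 15.3-fold higher by the counting interval, and rose 6.82-fold in 10H (6.31 to 7.37). The factor hnf4a rose 5.48-fold in 24H (4.75 to 6.36) and 2.13-fold in 24L (1.81 to 2.51). The part of endoderm in the values of gata4 and gata5 was not tested.

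Many markers of other differentiated tissues were lower in the libraries in which nppa and myl7 were. Skeletal muscle genes fell in 14 of 22 and rose in 4 in 24H, and their summed normalized counts were 775590 in 24C, then 474760 at low and 168279 at high dose. Blood and vessel genes fell in 10 of 21 and rose in 3, with sums of 589324, 397752 and 51027. Globin genes hold most of these sums, such as hbae3 with 158806 reads in 24C and 10507 in 24H. The sums therefore do not stand for the vessel genes. Neuron genes fell in 9 of 12 and rose in 0, with sums of 32641, 18719 and 8593. The most abundant of them was tubb5, with 17376, 7646 and 2650 reads. As tubb5 holds a large part of these sums, they do not stand for neuron genes as a whole. None of these lists held a gene at 0 in the 24 hpf libraries. Genes named from the muscle list went opposite ways. The fast muscle genes pvalb1 and tnnt3b fell to 0.00354 (0.00294 to 0.00423) and 0.0111 (0.00965 to 0.0126), while the myogenic factor genes myog and myf5 rose 18.5-fold (16.1 to 21.5) and 12.5-fold (11 to 14.2). Genes named from the blood and vessel list also went opposite ways. The globin gene hbae1 was at 0.0300 (0.0290 to 0.0310) and the endothelial receptor gene kdr was higher 7.21-fold (6.51 to 8.0). The gene etv2 rose too, from 613 reads in 24C to 1905 in 24H. Other vessel genes of the list changed less, so kdr does not stand for vessels as a whole. Their reads in 24C and 24H were 950 and 1395 for kdrl, 1443 and 1274 for fli1a, and 665 and 564 for cldn5b. The part of these tissues in the values of nppa and myl7 was not tested.

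Fin bud and retina genes, tissues that share hand2 and tbx5a with the heart, rose in 6 and fell in 3 of 15 in 24H and rose in 2 and fell in 4 of 12 measured in 10H. The eye factor pax6a fell in 10H to 0.0926 (0.0679 to 0.124) and was at 0.871 (0.822 to 0.923) in 24H. The growth factor gene fgf24, listed for the fin bud, rose 4.96-fold in 10H (4.05 to 6.13) and 2.34-fold in 24H (1.79 to 3.10). The tissue behind its 10 hpf value was not tested. Other genes of the list differed in direction in 24H. There sall4 rose 6.13-fold (5.81 to 6.47), while tbx4, picked after its values were seen, had 126 reads in 24C and 66 in 24H. Pharyngeal arch genes rose in 5 and fell in 1 of 13 in 24H, and rose in 0 and fell in 3 of 10 measured in 10H. The neural crest factor genes sox10 and sox9a fell in 10H to 0.155 (0.104 to 0.225) and 0.434 (0.375 to 0.501). They rose in 24H 2.62-fold (2.44 to 2.82) and 2.40-fold (2.22 to 2.60). Other genes of the arch list were not lower in 10H. There foxd3 was at 1.23 (1.14 to 1.32), and tfap2a and ednra had 13099 and 1500 reads, against 11789 and 1007 in 10C. In 24H foxd3 rose 4.11-fold (3.71 to 4.57) and dlx3b rose from 1393 to 5218 reads, while barx1 fell from 464 to 87. The part of fin bud, retina and arches in the values of hand2 and tbx5a was not tested.

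At 5 μg/l and 10 hpf the sarcomere list had 3 genes that rose and 2 that fell of 14 measured, or 21.4% and 14.3%, where 4.27% of all measured genes rose and 2.31% fell. The 5, named after their values were seen, were the titin genes ttnb, 2.19-fold (2.04 to 2.35), and ttna, 2.13-fold (1.93 to 2.35), the troponin gene tnnt2a, from 12 to 34 reads, and, lower, csrp3 at 0.116 (0.0764 to 0.17) and tnni1b at 0.452 (0.257 to 0.777). At 10 hpf the heart field holds no differentiated muscle, and the heart muscle marker myl7 had 0 reads in 10C and 3 in 10L. The sarcomere values at this age are therefore not a measure of heart muscle, and the tissues behind them were not tested. In 10L 3 of 14 endocardium and valve genes rose and 0 fell, and 0 of 20 regulators, 0 of 20 signals and 0 of 8 rhythm genes were called either way. In 24L, 1 of 23 regulators rose, srfl, 2.65-fold (2.12 to 3.33), and 2 of 16 endocardium and valve genes rose, among them vcana, 2.73-fold (2.56 to 2.92). Both ratios were higher in 24H. None of the 19 signals measured in 24L was called, and 4.35%, 12.5% and 0% of these lists rose where 3.74% of all measured genes did.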

How the data were processed

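Whole-embryo RNA of 6 groups was sequenced as 1 library each with a TruSeq kit. The authors mapped reads with Tophat to Zv10 (Zv9 per the labels), compared them with the human genome and deposited 1 table, whose signal values are normalized counts and are named TMM-scaled in the paper. No counting program was named in the sources used here.

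Every deposited value was a whole multiple of its library's step (within 0.001), which gave the reads. The steps equal median-of-ratios size factors over the 17335 genes above 0 in all libraries, with a relative difference below 1e-09, and not TMM factors. With 1 library per group, a two-sided exact binomial test compared libraries over 21217 genes, and an age plus dose model over the 6 libraries (edgeR quasi-likelihood) was added after the data were seen. A further 11 entries that merge clone-named transcripts, with 13.9% to 15.5% of the reads, were left out. For a library at 0 reads a floor of 3 counts was used. Bounds and intervals cover counting error only.

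The members and lists were chosen with earlier results of these data known. The 12 lists held 210 symbols, of which 184 matched by gene ID, 6 by name and 20 not at all. A list gene counted as measured with at least 10 reads on average, and medians had 1 added to the normalized counts. Named list genes were the 2 highest and 2 lowest called in 10H or 24H with at least 50 reads, all paralogs, and for each member the 2 genes with the highest correlation over the 6 libraries. Results for some genes under this rule are not reported here. Alternatives were library totals, median-of-ratios factors, TMM, a 10-read minimum, 4-fold, adjusted p, an added constant of 1 and edgeR's exact test (version 4.0.16), for which a biological coefficient of variation of 0.4 was assumed. R 4.3.3 and Python 3.11.15 with scipy 1.17.1 were used, and the scripts were tested on simulated data.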

Additional observations from a re-analysis of the deposited data

Results flagged for a closer look

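Differences between the effects of PCP at 10 and 24 hpf were tested as differences of log2 fold changes with a 95% interval for counting error and without any replicate spread. Given here are those over 1 in size in a gene called at either age. For hand2 at 200 μg/l the difference, 24 minus 10 hpf, was 2.08 (1.90 to 2.26). For gata5 at 200 μg/l it was 1.40 (1.29 to 1.51). For tbx20 it was -2.35 at 5 μg/l (-2.87 to -1.83), where the gene rose at 10 hpf and fell at 24 hpf, and 1.37 at 200 μg/l (0.71 to 2.04). Smaller differences whose interval also left out 0 were 0.49 and 0.75 for gata4 at 5 and 200 μg/l, 0.66 for gata5 at 5 μg/l and -0.19 for hand2 at 5 μg/l.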

How the results depend on the processing

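No paired analysis was possible because the labels give no replicate numbers shared between groups, and the age plus dose model over the 6 libraries was run in its place. No library was left out, since each stands alone in its group. Median-of-ratios factors equalled the deposited scaling, and TMM (added after the data were seen), adjusted p, the 10-read minimum and an added 1 changed no member's call. At a 4-fold threshold the members called were 0 in 10L, 0 in 10H, 0 in 24L, 1 in 24H, 5 in 24C against 10C, 1 in 10H against 10L and 1 in 24H against 24L. With an assumed coefficient of 0.4 they were 0 in 10L, 1 in 10H (hand2), 0 in 24L and 1 in 24H (nppa). They were 2 in 10H against 10L (hand2 and tbx20), 1 in 24H against 24L (nppa) and 5 in 24C against 10C. The p in that test (edgeR exact test, unadjusted) was 0.114 for gata4, 0.0608 for gata5 and 0.144 for myl7 in 24H. For hand2 in 10H it was 0.0482, just under the threshold. With library totals, gata4 in 24C against 10C lost its call, tbx5a in 10L against 10C turned to 0.066 and in 10H against 10L to -0.039 on the log2 scale, neither of them called, and the median of all genes moved by over 0.1 only in these last 2 comparisons, from -0.02 to 0.11 and from 0.06 to -0.09. The split of all calls in 10L went from 801 higher and 510 lower to 1071 and 387, and in 10H against 10L from 1649 and 1860 to 1242 and 2332. All genes called came to 307, 683, 378 and 2085 in 10L, 10H, 24L and 24H at 4-fold and to 244, 694, 352 and 2436 with the assumed coefficient, from 1311, 2776, 1668 and 6052. In 24C against 10C, 10H against 10L and 24H against 24L they came to 5353, 1018 and 1030 at 4-fold and to 5969, 1129 and 1135 with the coefficient, from 9958, 3509 and 3790. The reads were the same under every setting, so these changes follow from the settings themselves. Why the scalings differ was not tested. Depth limits nppa, myl7 and vmhc at 10 hpf, where 8 reads or fewer were counted.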

Other observations

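The genes whose log2 normalized counts followed each member most closely over the 6 libraries are given as a description with Pearson's r and no test, since the libraries form 2 age groups and many genes share that split. For hand2 they were mobkl1ab and the midbrain-hindbrain factor eng2a (r = 0.993 for both), and only these 2 of 10031 genes compared had r above 0.99. The normalized counts of eng2a were 836, 845 and 84.1 at 10 hpf (10C, 10L, 10H) and 707, 690 and 1227 at 24 hpf (24C, 24L, 24H). For tbx20 they were fam49a (r = 0.992) and clcn6 (r = 0.99), again 2 genes above 0.99. For gata4 they were gorasp1 and foxk1 (r = 0.994 for both), among 10 genes. For gata5 they were the somite clock gene her7 and fam116b (r = 0.999 for both), among 103. For tbx5a, nppa, myl7 and vmhc between 108 and 195 genes passed 0.99, and the closest were txlnbb and cacng1, spon1a and slc2a15b, pip5k1b and mfap4, and pdlim3b and capn1a. The entry nkx2, whose name was shortened and may merge several Nkx2 factors, was chosen after its values were seen. It fell in 10H to 0.407 times the control (0.380 to 0.437), the library in which hand2 and tbx20 fell, and was at 1.24 in 24H (1.18 to 1.30).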
